A study of Mus musculus with 12 samples.

Results

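Crabp1, Crabp2, Rara, Rarb, Rarg, Cyp26a1, Stra6 and Dhrs3 were followed through RNA sequencing of mouse embryonic stem cells, as a set of retinoic acid binding and response genes. The genes were taken by symbol from the 3 deposited tables. All 8 had a row in each table, out of 19996 genes in all. They were chosen by their measured FPKM differences in these same comparisons, together with their retinoid role, so their values are a description: no p-value is given for them, and a pass of the threshold by one of them is stated but supports nothing further.

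The data came from 12 libraries of polyadenylated RNA, in 6 groups of 2. Foxd3, the gene manipulated, encodes a forkhead factor known from pluripotent and neural crest cells. Cells carrying floxed Foxd3 and an inducible recombinase (Foxd3fl/fl;Cre-ER) formed 4 groups: the 2i libraries labelled Foxd3-/-, given 4-hydroxytamoxifen at 2 µM for 3 days, and untreated 2i Foxd3fl/fl; SL Foxd3-/-, with the same treatment, and untreated SL Foxd3fl/fl. Here 2i is a serum-free N2B27 medium with leukemia inhibitory factor (LIF), the MEK inhibitor PD0325901 at 0.4 µM and the GSK3β inhibitor CHIR99021 at 3 µM. SL is a medium with 15% fetal bovine serum and LIF, on irradiated embryonic fibroblast feeders. The protocol names feeders for SL alone, so medium and feeders differ together. The third pair was tetON Foxd3, a line with doxycycline-inducible Foxd3, and WT, wild-type LF2 cells. The tetON Foxd3 cells received doxycycline at 1 µg/µl for 3 days. WT cells were given doxycycline too, for which the labels state no separate dose or time. Both grew in medium with 15% serum and LIF without feeders. No group received tamoxifen without the floxed allele. The sources used here give neither the promoter driving Cre-ER nor whether each line is 1 clone. Nothing in the labels says that the 2 replicates of a group were separate cultures, so their spread may be technical.

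Retinoic acid is made from vitamin A (retinol) inside the cell. Stra6 takes up retinol from its carrier protein, dehydrogenases oxidise it by way of retinaldehyde to retinoic acid, and Dhrs3 reduces retinaldehyde back to retinol. Crabp1 and Crabp2 bind retinoic acid in the cytoplasm, and Crabp2 is known to hand it to the receptors. The receptors Rara, Rarb and Rarg pair with retinoid X receptors on DNA response elements, often direct repeats of a half-site with a spacer between them. Rarb and Cyp26a1, whose enzyme degrades retinoic acid, are textbook direct targets. In embryonic stem cells retinoic acid is widely used to start differentiation.

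RefSeq promoter windows (GRCm38.p6) matched 7 of the 8 genes, with 16 start sites. The 250 bases before each start were searched on both strands for the half-site AGGTCA, its variant form written AGTTCA, the variant form written GGGTCA and the variant form written GGTTCA, and for direct repeats of any 2 of them with a spacer of 1, 2 or 5 bases. A single half-site lay in 4 of the 16 windows, against 38.6% of all 32851 windows. The repeat with a spacer of 5 lay in 2 of the 16, those of Rarb and Cyp26a1, against 0.0883% of all windows (29 windows). Repeats with spacers of 1 and 2 lay in 0 of the 16, against 0.164% and 0.174% of all windows. Rarb and Cyp26a1 were already known targets, and some windows of Rara and of Dhrs3 share bases. No enrichment is read from these counts. The windows of Rarb and Cyp26a1 are shown because they hold the repeat, with the repeat in capitals, and that of Crabp1 because its level differed strongly in 2i. Each is read 5′ to 3′ on the strand of its gene.
Rarb, chr14:16575477-16575726, minus strand: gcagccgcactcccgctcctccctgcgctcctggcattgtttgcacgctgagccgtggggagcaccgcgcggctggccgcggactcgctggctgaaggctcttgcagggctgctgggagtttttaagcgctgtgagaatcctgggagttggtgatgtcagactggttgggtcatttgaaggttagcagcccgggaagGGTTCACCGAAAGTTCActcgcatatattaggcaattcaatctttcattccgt
Cyp26a1, chr19:37697558-37697807, plus strand: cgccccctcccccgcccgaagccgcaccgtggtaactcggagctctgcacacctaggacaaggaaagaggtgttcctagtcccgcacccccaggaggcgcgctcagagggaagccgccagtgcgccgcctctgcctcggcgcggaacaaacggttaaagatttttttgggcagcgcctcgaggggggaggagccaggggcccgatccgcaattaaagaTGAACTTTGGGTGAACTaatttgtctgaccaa
Crabp1, chr9:54764498-54764747, plus strand: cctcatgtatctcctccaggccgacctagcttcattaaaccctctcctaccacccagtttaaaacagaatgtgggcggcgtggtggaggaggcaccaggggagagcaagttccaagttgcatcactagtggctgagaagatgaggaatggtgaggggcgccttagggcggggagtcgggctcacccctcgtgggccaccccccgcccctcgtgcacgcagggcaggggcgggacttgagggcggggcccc
The Rarb repeat spans bases -53 to -37 from the start and reads along the gene, and that of Cyp26a1 spans -32 to -16 and reads on the opposite strand (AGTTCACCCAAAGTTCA). No match says only that these letters are not in that window.

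Levels are FPKM, a fragment count scaled to transcript length and library size, as deposited for each library. Depth per library is unknown. The authors' group mean reads, after their own scaling, summed to between 24278900 and 54096100 per group, and between 11033 and 11919 genes per library reached 1 FPKM. Differences are on the scale log2(FPKM + 1), from limma fitted over all genes with a mean of at least 1 FPKM in 1 group or more, and a gene is called at an adjusted p under 0.05. On it the change of a gene with low FPKM comes out too small. As a check of the labels, Foxd3 averaged 1.72 ± 0.154 FPKM in SL Foxd3-/- and 4.67 ± 0.200 FPKM in SL Foxd3fl/fl, and 51.6 ± 2.18 FPKM in tetON Foxd3 and 12.3 ± 2.52 FPKM in WT (SD, n = 2 each). Foxd3 was called higher in overexpression (limma adjusted p = 0.0145) but was not called in SL (limma adjusted p = 0.137). It averaged 2.26 ± 0.265 FPKM in the 2i libraries labelled Foxd3-/- and 2.47 ± 0.0658 FPKM in 2i Foxd3fl/fl (SD, n = 2 each), and the authors' deposited table lists a fold of 1.7 toward the libraries labelled Foxd3-/-. In FPKM the 2i libraries overlapped for Foxd3 (log2 difference -0.09, not called), while the authors' fold went against the label. Foxd3 thus does not bear out the 2i label, and directions in 2i follow the labels only.

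The genes were split by whether they reached 1 FPKM in all 12 libraries. Crabp1, Crabp2, Rara and Rarg stood at 1 FPKM or more in 12 of 12 libraries, from 1.92 FPKM (Crabp2 in a WT library) to 68.5 FPKM (Crabp1 in a 2i Foxd3fl/fl library). Dhrs3 lay between 0.658 and 3.11 FPKM, with 5 libraries at 1 FPKM or more, so its range overlapped that of Crabp2. Cyp26a1, Stra6 and Rarb stayed under 1 FPKM in every library, with highest values of 0.833, 0.371 and 0.243 FPKM. Both genes that hold the repeat were thus under 1 FPKM throughout. Of the 8, 4 passed the filter on low values in 2i, 5 in SL and 4 in overexpression.

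**Figure D1:**
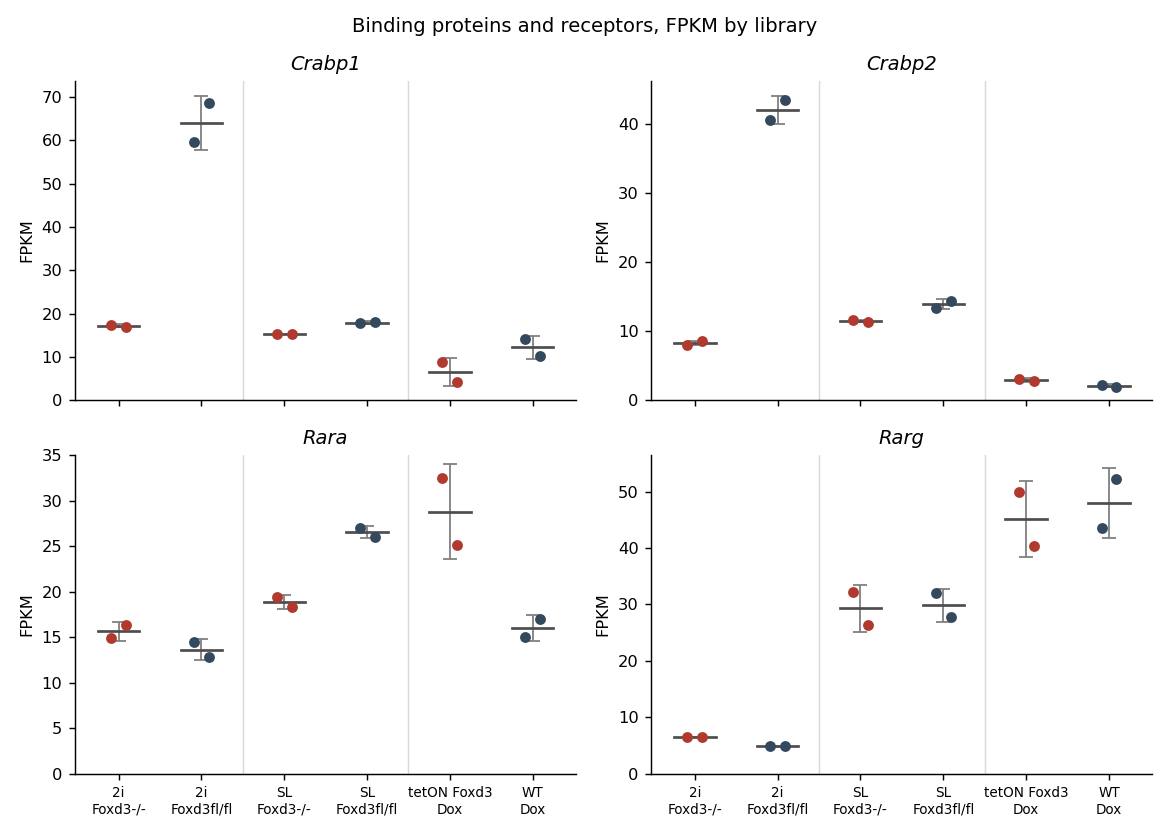
FPKM of Crabp1, Crabp2, Rara and Rarg in each of the 12 libraries, by group; points are libraries, lines the mean and bars the SD (n = 2). Both Crabp genes stand highest in 2i Foxd3fl/fl, and Rarg is under 7 FPKM in all 4 libraries of the 2i pair.

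The binding proteins showed the strongest differences of the set, in 2i. Crabp1 had 17.4 and 16.9 FPKM in the 2i libraries labelled Foxd3-/-, against 59.7 and 68.5 FPKM in 2i Foxd3fl/fl. The groups did not overlap, and the mean was 3.73-fold lower in the libraries labelled Foxd3-/- (log2 difference -1.84, SE 0.08, 95% interval -2.01 to -1.66). Crabp2 had 8.06 and 8.52 FPKM in the 2i libraries labelled Foxd3-/-, against 40.6 and 43.5 FPKM in 2i Foxd3fl/fl. Its mean was 5.07-fold lower there (log2 difference -2.21, SE 0.07, 95% interval -2.38 to -2.04). The authors' deposited table, which rests on reads, lists folds of -4.41 for Crabp1 and -5.87 for Crabp2. In bulk RNA, fewer cells that express a gene and less of its RNA per cell cannot be told apart.

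The receptors differed little in that pair. Rarg, one of the retinoic acid receptors, had 6.55 and 6.47 FPKM in the 2i libraries labelled Foxd3-/-, against 4.97 and 4.83 FPKM in 2i Foxd3fl/fl (log2 difference 0.35, SE 0.09). Rara had 14.9 and 16.3 FPKM in the libraries labelled Foxd3-/-, against 14.4 and 12.8 FPKM in 2i Foxd3fl/fl (log2 difference 0.19, 95% interval -0.01 to 0.39). The libraries did not overlap for either receptor. The median of all genes in this comparison was itself 0.19 as deposited and 0.00 after median-of-ratios scaling, so Rara stood at the median. Scaling turned the Rara difference to -0.01, took Rarg to 0.17 and ended its call, and moved Crabp1 and Crabp2 to -2.04 and -2.41.

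Of the 4 genes of the set that were tested in 2i, 2 were called lower (Crabp1 and Crabp2) and 1 higher (Rarg, as deposited only). In the same fit 67.6% of all 11637 genes were called, 47.9% higher and 19.7% lower (31.8% and 32.7% after scaling), and nothing is read from the count. All 4 had groups that did not overlap, as had 85.3% of all genes. Markers of other cell types moved in these libraries too. The 20 fibroblast genes summed to 23.4 and 23.9 FPKM in the libraries labelled Foxd3-/-, against 11.1 and 12.3 FPKM in 2i Foxd3fl/fl. Of these genes 16 and 15 stayed under 1 FPKM in both libraries of their group, with Lum at 0 in all 4 libraries. The 7 neural genes summed to at most 3.04 FPKM in the libraries labelled Foxd3-/-, against 2.48 FPKM in 2i Foxd3fl/fl. The 9 primitive endoderm genes summed to 21.9 and 22.7 FPKM in the libraries labelled Foxd3-/-, against 14.9 and 15.2 FPKM in 2i Foxd3fl/fl, with 4 of 4 tested called higher as deposited. The 8 trophoblast genes summed to 23.3 and 25.9 FPKM in the libraries labelled Foxd3-/-, against 27.5 and 31.0 FPKM in 2i Foxd3fl/fl, with 1 of 4 tested called lower as deposited and 3 after scaling. The 10 pluripotency genes summed to 1626 and 1724 FPKM in the libraries labelled Foxd3-/-, against 1192 and 1237 FPKM in 2i Foxd3fl/fl, with 7 called higher. Their part in the Crabp difference was not tested.

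In SL the same genes lay close together. Crabp1 had 15.2 FPKM in both SL Foxd3-/- libraries, against 17.7 and 18.1 FPKM in SL Foxd3fl/fl (log2 difference -0.22, 95% interval -0.50 to 0.05). Crabp2 had 11.6 and 11.3 FPKM in SL Foxd3-/-, against 13.4 and 14.4 FPKM in SL Foxd3fl/fl (log2 difference -0.26, 95% interval -0.55 to 0.04). Both were a little lower in the SL Foxd3-/- libraries without overlap. Rara had 19.4 and 18.4 FPKM in SL Foxd3-/-, against 27.0 and 26.0 FPKM in SL Foxd3fl/fl, which is 1.40-fold lower (log2 difference -0.47, SE 0.11, 95% interval -0.74 to -0.20). Rarg had 32.2 and 26.4 FPKM in SL Foxd3-/-, against 31.9 and 27.8 FPKM in SL Foxd3fl/fl, and these overlapped. Its log2 difference of -0.03 (95% interval -0.37 to 0.31) became 0.11 without SL Foxd3-/- replicate 2 and 0.07 without SL Foxd3fl/fl replicate 1. Dhrs3 had 1.40 and 2.29 FPKM in SL Foxd3-/-, against 1.96 and 3.11 FPKM in SL Foxd3fl/fl (log2 difference -0.31, 95% interval -0.88 to 0.26), again with overlap. That difference was -0.09 without SL Foxd3-/- replicate 1, -0.54 without replicate 2, -0.55 without SL Foxd3fl/fl replicate 1 and -0.08 without replicate 2. Of the 5 tested, 0 were called by limma, and 0 by the authors' p-values adjusted here, while 1 (Rara, lower) had an unadjusted p under 0.05. Limma called 0.00832% of 12024 genes in SL and the authors' p-values 0.535% of 19996, and at an unadjusted p 6.07% of genes were higher and 3.05% lower. Groups did not overlap for 3 of the 5 and for 37% of all genes. The 20 fibroblast genes summed to 377 and 414 FPKM in SL Foxd3-/-, against 229 and 271 FPKM in SL Foxd3fl/fl, and all 17 tested lay higher with 0 called. The 8 trophoblast genes summed to 229 and 260 FPKM in SL Foxd3-/-, against 145 and 182 FPKM in SL Foxd3fl/fl. Their part in these values was not tested.

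In overexpression Rara stood out in the other direction. It had 32.4 and 25.1 FPKM in tetON Foxd3, against 15.0 and 17.0 FPKM in WT, which is 1.80-fold higher (log2 difference 0.80, SE 0.16, 95% interval 0.41 to 1.19). Limma did not call it, except without tetON Foxd3 replicate 2 (0.98), with a replicate block or in 1 fit over all 12 libraries, while the authors' deposited table, adjusted here, did (fold 1.78). Crabp1 had 8.71 and 4.14 FPKM in tetON Foxd3, against 14.05 and 10.3 FPKM in WT (log2 difference -0.89, SE 0.33, 95% interval -1.70 to -0.07). The tetON Foxd3 libraries lay apart from each other, and the difference was -1.34 without tetON Foxd3 replicate 1 and -0.43 without replicate 2. Crabp2, low in both, had 3.12 and 2.73 FPKM in tetON Foxd3, against 2.24 and 1.92 FPKM in WT (log2 difference 0.35, 95% interval -0.05 to 0.75). The binding proteins thus lay on opposite sides of 0 here, neither of them called. Rarg had 49.9 and 40.4 FPKM in tetON Foxd3, against 43.6 and 52.3 FPKM in WT, and the libraries overlapped (log2 difference -0.09, 95% interval -0.45 to 0.28). It was -0.24 without tetON Foxd3 replicate 1 and -0.22 without WT replicate 1, and turned to 0.06 without tetON Foxd3 replicate 2 and 0.04 without WT replicate 2. Of the 4 tested, 0 were called by limma, with 2 at an unadjusted p under 0.05 (Crabp1 and Rara) and 1 by the authors' p-values adjusted here (Rara). Limma called 2.64% of 11972 genes and the authors' p-values 4.55% of 19996, and at an unadjusted p 10.4% of genes were higher and 10.4% lower. Groups did not overlap for 3 of the 4 and for 52.3% of all genes. Of the markers tested, 1 of 2 neural genes was called higher and 2 of 10 pluripotency genes (Nanog and Dppa4) lower. Of the fibroblast, primitive endoderm and trophoblast genes tested, 0 were called. The neural markers summed to 10.2 and 12.2 FPKM in tetON Foxd3, against 4.91 and 9.37 FPKM in WT. The pluripotency markers summed to 2155 and 2764 FPKM in tetON Foxd3, against 2581 and 2598 FPKM in WT. The part of these markers was not tested.

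**Figure D2:**
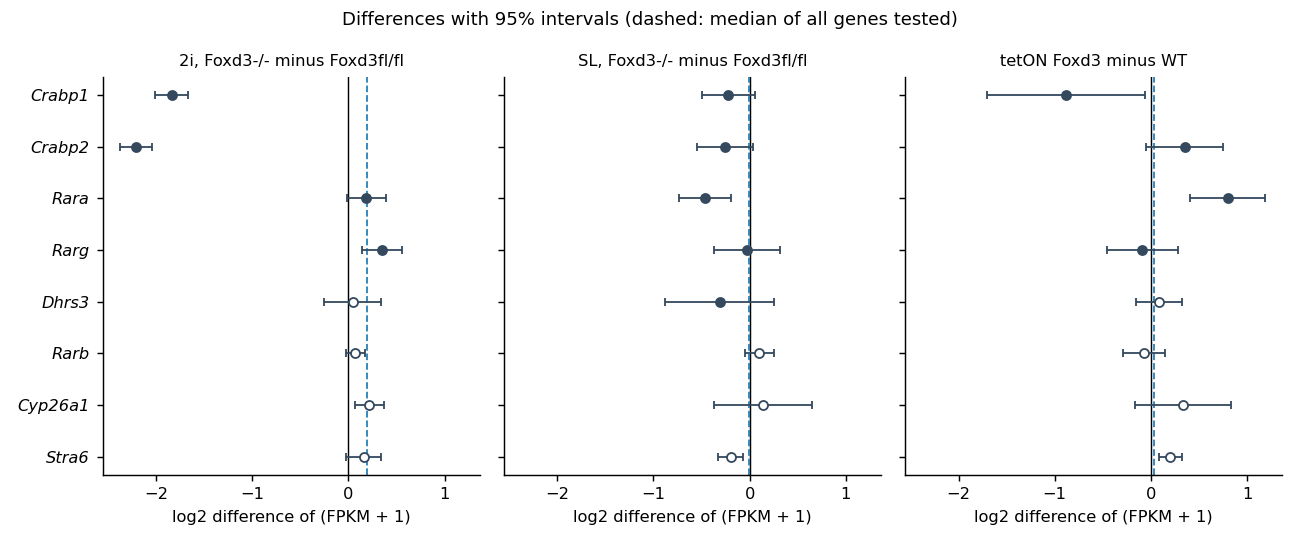
Log2 difference of each gene in the 3 comparisons, on log2(FPKM + 1), with 95% intervals from limma (n = 2 each); open points are genes under the filter on low values and dashed lines the median of all genes tested. Crabp1 and Crabp2 lie near -1.84 and -2.21 in 2i and near -0.22 and -0.26 in SL, and Rara lies at -0.47 in SL and 0.80 in overexpression.

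The difference between libraries labelled Foxd3-/- and Foxd3fl/fl was itself unequal in the 2 media for 3 genes. In a joint fit of the 8 Foxd3fl/fl;Cre-ER libraries, the 2i difference minus the SL difference was -1.61 for Crabp1 (SE 0.13, 95% interval -1.90 to -1.32) and -1.96 for Crabp2 (SE 0.13, 95% interval -2.25 to -1.66). For Rara it was 0.66 (SE 0.14, 95% interval 0.34 to 0.97), and 0.46 after scaling. These 3 of 5 tested were called, against 23.9% of all 12497 genes. The Rara call was lost without 2i labelled Foxd3-/- replicate 2 (0.59) or 2i Foxd3fl/fl replicate 2 (0.58). Rarg (0.38, 95% interval -0.01 to 0.76) and Dhrs3 (0.36, 95% interval -0.30 to 1.01) were not called, and the Dhrs3 value ranged from 0.12 to 0.60 as each library was left out.

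Levels set side by side across tables carry no test, since each table may have its own scaling. Crabp1 ranked 2i Foxd3fl/fl first by a wide margin, then SL Foxd3fl/fl, the 2i libraries labelled Foxd3-/-, SL Foxd3-/-, WT and tetON Foxd3, and no neighbours in that order overlapped. Crabp2 had 2i Foxd3fl/fl first and WT last, again with no overlap between neighbours. Rara was highest in tetON Foxd3 and SL Foxd3fl/fl, which overlapped, and lowest in 2i Foxd3fl/fl. WT and the 2i libraries labelled Foxd3-/- overlapped for Rara in the middle of the order. Rarg was highest in tetON Foxd3 and WT, which overlapped, followed by the SL groups, which overlapped too, and lowest in the 2i pair.

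Ratios of 2 genes within 1 library do not depend on the scaling of a table. Rarg over Rara was 0.439 and 0.396 in the 2i libraries labelled Foxd3-/-, against 0.345 and 0.378 in 2i Foxd3fl/fl. It was 1.66 and 1.44 in SL Foxd3-/-, against 1.18 and 1.07 in SL Foxd3fl/fl, and 1.54 and 1.61 in tetON Foxd3, against 2.91 and 3.07 in WT. Rara FPKM thus exceeded Rarg FPKM in all 4 libraries of the 2i pair and lay below it in the other 8. Crabp1 over Crabp2 was 2.16 and 1.99 in the 2i libraries labelled Foxd3-/-, against 1.47 and 1.57 in 2i Foxd3fl/fl. It was 1.31 and 1.34 in SL Foxd3-/-, against 1.32 and 1.26 in SL Foxd3fl/fl. In tetON Foxd3 it was 2.79 and 1.52, against 6.27 and 5.38 in WT. Crabp1 FPKM exceeded Crabp2 FPKM in 12 of 12 libraries.

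**Figure D3:**
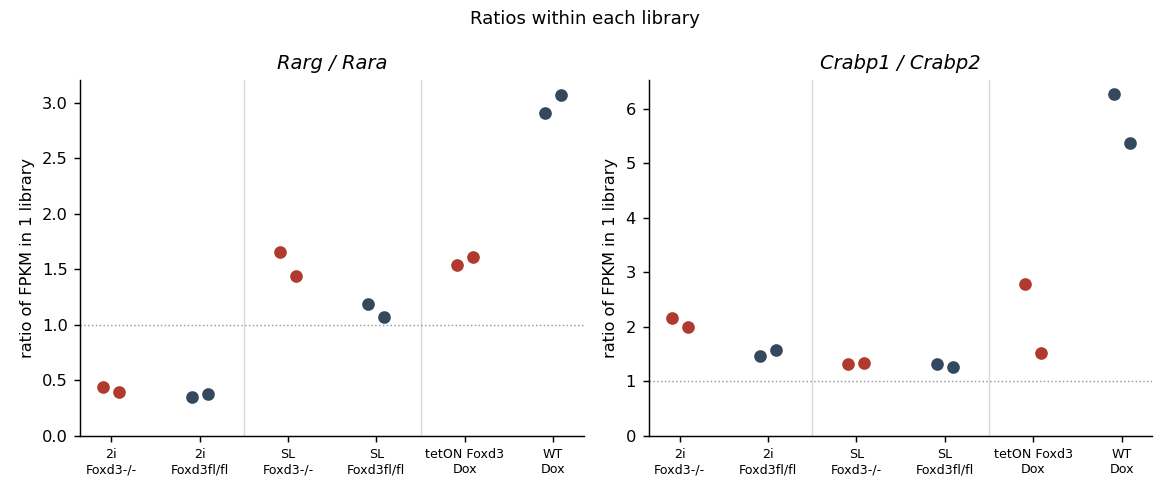
Rarg over Rara and Crabp1 over Crabp2, as ratios of FPKM within each of the 12 libraries, by group; each point is a library and the dotted line marks equal FPKM. Rarg over Rara is under 1 in the 2i pair and over 1 elsewhere, and highest in WT.

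The direct targets and the transporter stayed under 1 FPKM in every library, and Dhrs3 reached at most 3.11 FPKM. Cyp26a1 had 0.209 and 0.290 FPKM in the 2i libraries labelled Foxd3-/-, against 0.0247 and 0.125 FPKM in 2i Foxd3fl/fl, and did not overlap. It had 0.833 and 0.417 FPKM in SL Foxd3-/-, against 0.690 and 0.271 FPKM in SL Foxd3fl/fl, and 0.506 and 0.793 FPKM in tetON Foxd3, against 0.121 and 0.523 FPKM in WT, with overlap in both pairs. Its group means rested on few reads, from 5.37 to 70.8 mean reads in the authors' deposited tables. Rarb was listed at 0.0875 and 0.0180 FPKM in the 2i libraries labelled Foxd3-/- and at 0 in both 2i Foxd3fl/fl libraries. It had 0.145 and 0.243 FPKM in SL Foxd3-/-, against 0.0827 and 0.141 FPKM in SL Foxd3fl/fl, and 0.0404 and 0.155 FPKM in tetON Foxd3, against 0.0932 and 0.217 FPKM in WT. The Rarb groups did not overlap in 2i and SL, as for 85.3% and 37% of all genes tested there, and overlapped in overexpression. The Rarb means rested on few reads, from 0 to 28.8 mean reads. Exons of Rarb share 1793 bases with Top2b and 227 with Gm48162 on the opposite strand in GENCODE M21, and the sources used here do not state strand-specific counting, so reads there cannot be told apart. No exon of the other 7 genes overlapped another gene in that annotation.

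Stra6 lay at 0.256 and 0.0909 FPKM in the 2i libraries labelled Foxd3-/-, against 0.0464 and 0.0507 FPKM in 2i Foxd3fl/fl. It lay at 0.0945 and 0.0823 FPKM in SL Foxd3-/-, against 0.202 and 0.292 FPKM in SL Foxd3fl/fl, and at 0.371 and 0.307 FPKM in tetON Foxd3, against 0.171 and 0.158 FPKM in WT. The groups did not overlap in any of the 3 pairs. The same held for 85.3% of all genes tested in 2i, 37% in SL and 52.3% in overexpression. The Stra6 means rested on few reads, from 4.7 to 32.4 mean reads. The authors' deposited folds for it were 1.26 in 2i, -2.02 in SL and 1.53 in overexpression. Stra6 was under the filter throughout and was not tested. Dhrs3 was also under it in 2i, with 1.11 and 0.713 FPKM in the libraries labelled Foxd3-/-, against 0.891 and 0.794 FPKM in 2i Foxd3fl/fl. In tetON Foxd3 it had 0.890 and 0.759 FPKM, against 0.788 and 0.658 FPKM in WT, and the groups overlapped in both pairs. Its 4 SL libraries were the 4 highest.

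**Figure D4:**
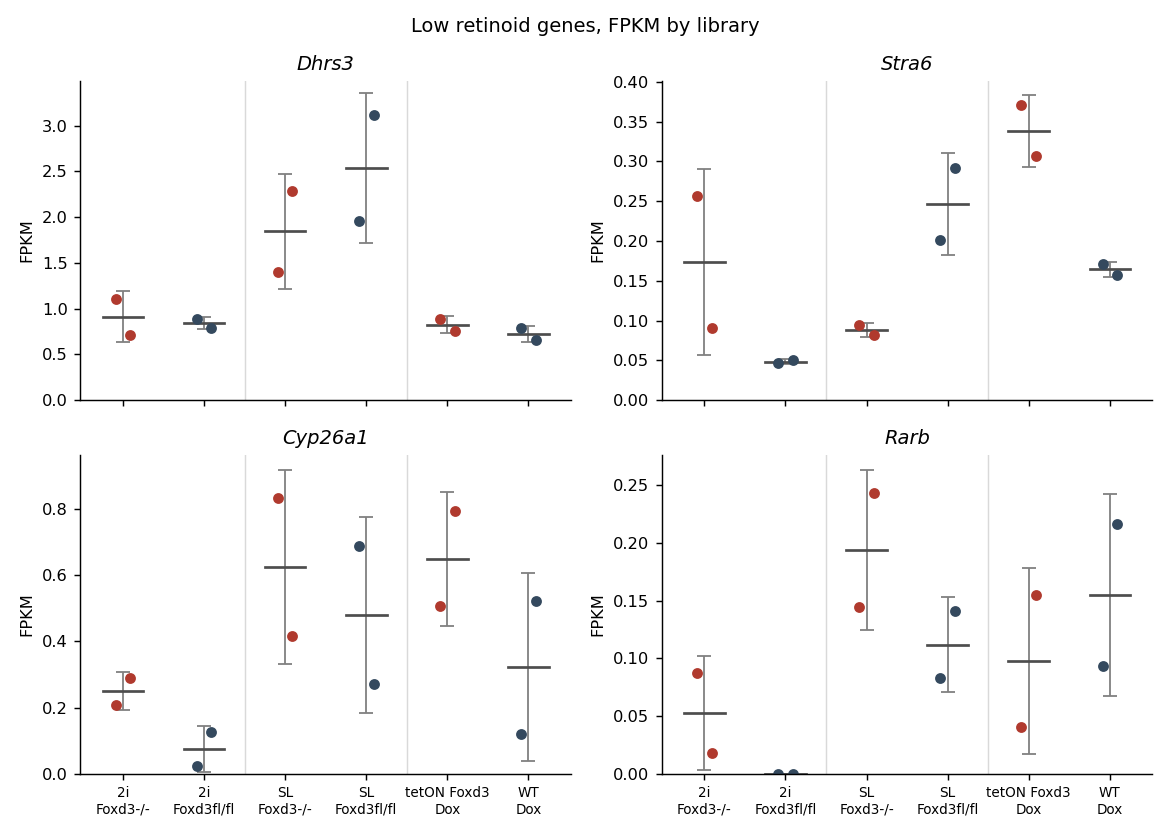
FPKM of Dhrs3, Stra6, Cyp26a1 and Rarb in each of the 12 libraries, by group; points are libraries, lines the mean and bars the SD (n = 2). Cyp26a1, Stra6 and Rarb stay under 1 FPKM in every library, and Rarb is listed at 0 in both 2i Foxd3fl/fl libraries.

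The rest of the pathway was read from 45 other genes, of which 43 matched a row. In 2i, 25 were tested: 12 rose and 7 fell in the libraries labelled Foxd3-/- (11 and 7 after scaling), against 47.9% and 19.7% of all genes. Their median log2 difference was 0.26, beside 0.19 for all genes. Of 8 receptor partners and cofactors, 6 rose and 1 fell. The corepressor Ncor1 rose to 156 and 154 FPKM, against 95.5 and 92.7 FPKM in 2i Foxd3fl/fl (log2 difference 0.71, limma adjusted p = 1.33e-05), and the coactivators Ncoa1 (0.70, limma adjusted p = 0.000277) and Ncoa3 (0.40, limma adjusted p = 0.000742) rose.

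Of 9 genes of retinoid synthesis, storage and transport tested in 2i, 3 rose and 3 fell, against 47.9% and 19.7% of all genes. Aldh1a3, which makes retinoic acid from retinaldehyde, fell to 0.938 and 0.881 FPKM in the libraries labelled Foxd3-/-, against 2.09 and 2.29 FPKM in 2i Foxd3fl/fl (log2 difference -0.74, limma adjusted p = 0.000293). The retinol dehydrogenase Rdh10 rose to 2.29 and 2.52 FPKM in the libraries labelled Foxd3-/-, against 1.43 and 1.21 FPKM in 2i Foxd3fl/fl (log2 difference 0.56, limma adjusted p = 0.00168), and Rdh14 rose as well (0.67, limma adjusted p = 0.000918). With 67.6% of all genes called in this fit, nothing is read from that split.

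Of 7 transcriptional targets tested in 2i, 3 rose and 3 fell, against 47.9% and 19.7% of all genes. The repressor gene Bhlhe40 fell to 20.0 and 21.2 FPKM in the libraries labelled Foxd3-/-, against 38.68 and 38.70 FPKM in 2i Foxd3fl/fl (log2 difference -0.88, limma adjusted p = 1.63e-05). Stra8, which retinoic acid induces for meiosis, fell to 1.21 and 1.29 FPKM in the libraries labelled Foxd3-/-, against 2.90 and 2.42 FPKM in 2i Foxd3fl/fl (log2 difference -0.70, limma adjusted p = 0.000592). The endoderm factor Gata6 rose (0.63, limma adjusted p = 0.000745). Fabp5, which also binds retinoic acid, was not called (0.09, limma adjusted p = 0.374) at 37.3 and 36.1 FPKM in the libraries labelled Foxd3-/-, against 31.7 and 37.6 FPKM in 2i Foxd3fl/fl.

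In SL, 0 of 26 other pathway genes were called by limma. At an unadjusted p under 0.05 there were 4, of which 3 lay higher and 1 lower, against 6.07% and 3.05% of all genes. Stra8 alone was called by the authors' p-values adjusted here, which called 0.535% of all genes. Their median was 0.13, beside -0.01 for all genes. Stra8 had 2.70 and 2.42 FPKM in SL Foxd3-/-, against 6.87 and 7.51 FPKM in SL Foxd3fl/fl (log2 difference -1.20, limma adjusted p = 0.0873). Stra8 lay lower there, as in 2i. Cyp1b1, a cytochrome P450 that can act on retinoids, had 7.62 and 6.17 FPKM in SL Foxd3-/-, against 4.05 and 2.91 FPKM in SL Foxd3fl/fl (0.82, limma adjusted p = 0.222). Cyp1b1 also lay higher in the 2i libraries labelled Foxd3-/- (log2 difference 0.60, under the filter there). Whether the higher fibroblast sum given above had a part in its SL value was not tested. Fabp5 (-0.21, limma adjusted p = 0.646), Ncoa3 (0.52, limma adjusted p = 0.306) and Ncoa1 (0.32, limma adjusted p = 0.589) were not called. Nor were Dhrs4 (-0.13, limma adjusted p = 0.908) and Rbp7 (0.13, limma adjusted p = 0.916).

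In overexpression 0 of 26 were called by limma. At an unadjusted p under 0.05 there were 10, of which 4 lay higher and 6 lower, against 10.4% and 10.4% of all genes. The authors' p-values adjusted here called 3, among them Aldh1a2 and Gbx2, and 4.55% of all genes. Aldh1a2, the main embryonic enzyme of retinoic acid synthesis, had 0.913 and 0.720 FPKM in tetON Foxd3, against 2.78 and 2.25 FPKM in WT (log2 difference -0.95, limma adjusted p = 0.0561). Aldh1a3 lay lower too (-0.52, limma adjusted p = 0.158). The homeobox gene Gbx2 had 1.63 and 2.35 FPKM in tetON Foxd3, against 4.69 and 6.63 FPKM in WT (-1.15, limma adjusted p = 0.0627). Fabp5 had 41.5 and 27.5 FPKM in tetON Foxd3, against 18.0 and 16.7 FPKM in WT (0.92, limma adjusted p = 0.078). Cyp1b1 (1.33, limma adjusted p = 0.146), Ncoa3 (-0.24, limma adjusted p = 0.219) and the retinoid X receptor Rxra (-0.32, limma adjusted p = 0.222) were not called.

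Between media, 5 of 27 other pathway genes were called for the 2i difference minus the SL difference, by label, 3 higher and 2 lower, against 18.4% and 5.55% of all genes. After scaling 0 were higher and 5 lower, against 9.73% and 11.7% of all genes. Bhlhe40 was the lowest (-1.12, limma adjusted p = 0.00866), followed by Aldh1a3 (-0.69, limma adjusted p = 0.0429). Ncor1 (0.57, limma adjusted p = 0.0112), Rxrb (0.45, limma adjusted p = 0.0281) and Gbx2 (0.66, limma adjusted p = 0.0358) were called higher as deposited. After scaling they were at 0.37 (limma adjusted p = 0.0567), 0.26 (limma adjusted p = 0.141) and 0.58 (limma adjusted p = 0.0503), in that order, and none of the 3 was called. Fabp5 (0.30, limma adjusted p = 0.129) and Cyp1b1 (-0.22, limma adjusted p = 0.481) were not called.

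**Figure D5:**
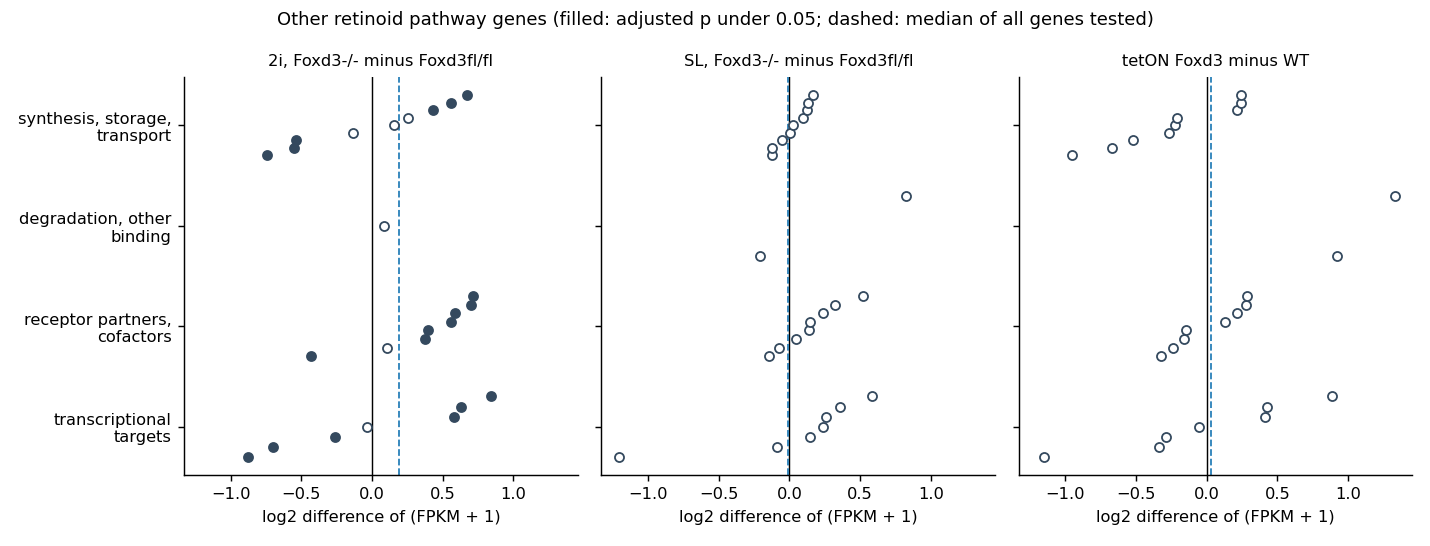
Log2 difference on log2(FPKM + 1) of the other retinoid pathway genes tested, by role and comparison; each point is a gene, filled where limma's adjusted p is under 0.05, and the dashed line is the median of all genes tested. In 2i 19 of 25 are called, on both sides of the median of 0.19, and in SL and overexpression 0 of 26.

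The genes whose pattern was most like those of the set were ranked by Pearson's r over the 12 libraries, on log2(FPKM + 1) centred on each table's mean, among 10557 genes above the filter in all tables. The libraries share tables and groups, so these are descriptions. Crabp2 was closest to Efna3, an ephrin ligand (r = 0.98), Eif4b (0.98) and Cnih (0.98). Efna3 had 7.22 and 7.42 FPKM in the 2i libraries labelled Foxd3-/-, against 19.5 and 21.8 FPKM in 2i Foxd3fl/fl. Crabp1 was closest to Mrpl42, Ech1 and Cadm4, with r of 0.96 each. Rara was closest to Mgst3, Cidea and Ubqln4, with r of 0.94 each, and Rarg to Rrp7a (0.94), Gtf2h3 (0.92) and Ppp1r16a (0.92). After median-of-ratios scaling the closest gene was Ech1 for Crabp1 (0.99), Rbbp4 for Crabp2 (0.99) and Foxd3 for Rara (0.96), while Rrp7a stayed closest to Rarg (0.92). Foxd3 is the gene manipulated, and Rara was chosen by its differences in the same comparisons, so nothing is read from that match.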

How the data were processed

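Polyadenylated RNA of 12 libraries was sequenced, per the labels' protocols, from TruSeq v2 libraries. Per the submitters' processing notes, FastQC, TopHat2, SAMtools, Cufflinks and DESeq2 were used, with the builds GRCm38 and mm10; their versions are not stated there. Each of the 3 deposited tables gives FPKM per library, per the file headers, and these FPKM values carry the tests. As deposited, the tables also hold the authors' p-value, a fold with a sign (a score) and mean reads by group (a signal). The medium of the deletion tables was taken from the table's name. Depth is unknown. Annotation is GENCODE M21 (GRCm38).

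Limma 3.58.1 in R 4.3.3 was run with a trend on log2(FPKM + 1) in each pair of groups (2 residual degrees of freedom), for genes with a mean of at least 1 FPKM in either group, adjusted by Benjamini and Hochberg over all genes tested. Count tests do not suit FPKM. An exact permutation of 2 against 2 cannot go below 0.3333. The fit was tested on simulated data, with 100 genes changed at each absolute log2 fold of 1 and 2. It recovered 100% of them, except 94% at a log2 fold of 1 in overexpression. It also called 16 unchanged genes in SL, 18 in 2i and 33 in overexpression. These figures hold for the simulated spread only. In the real SL libraries limma did not call Stra8 (log2 difference -1.20) or Foxd3 (-1.06). A gene not called in SL may therefore still differ. The members and lists were chosen with earlier results of these data known. The other pathway genes named are up to 4 per list past the threshold, or up to 2 where none passed, by adjusted p. Some genes that this rule names are not reported here. Alternatives were a pseudocount of 0.1, no filter and a filter at 5 FPKM, median-of-ratios scaling, no trend, a replicate block, 1 fit over all 12 libraries, each library left out and the authors' p-values.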

Additional observations from a re-analysis of the deposited data

Results flagged for a closer look

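The difference between the libraries labelled Foxd3-/- and the Foxd3fl/fl libraries was not the same in 2i and SL for 3 genes of the set, by the joint fit of the 8 libraries. The 2i difference minus the SL difference, on the log2(FPKM + 1) scale, was -1.61 for Crabp1, -1.96 for Crabp2 and 0.66 for Rara. Foxd3 itself averaged 2.26 FPKM in the 2i libraries labelled Foxd3-/-, against 2.47 FPKM in 2i Foxd3fl/fl, so these values compare libraries by their labels. In the same fit 23.9% of all genes were called. The Rara value ranged from 0.58 to 0.74 as each library was left out. The 3 genes belong to a set chosen by its differences in these same comparisons. Their values are therefore a description, and their calls support nothing further.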

How the results depend on the processing

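Crabp1 and Crabp2 kept their direction and their call in 2i, and in the difference between media, under each alternative run (12 and 14 per gene); their 2i differences ranged from -2.14 to -1.74 and from -2.55 to -2.16. Each library left out leaves a lone sample that is assumed to vary like the other groups, and 2 samples a group limit all counts. The set's called genes numbered 0 in SL and overexpression and became 1 and 2 with a replicate block, 2 in overexpression with 1 fit over all 12 libraries and 1 by the authors' p-values there; leaving out a library gave 0 to 1 in overexpression. Deviations of same-numbered libraries correlated at 0.60 in SL, 0.60 in overexpression and -0.05 in 2i, but with 2 pairs and no label to that effect the numbers were not taken as pairs. With the replicate block, calls in SL numbered 1171 higher and 826 lower over all genes, against 1 and 0 without it, and 1229 and 1244 in overexpression, against 119 and 197; other pathway genes called became 6 in SL and 7 in overexpression, and in the difference between media 13, with 3928 higher and 1414 lower over all genes. The fit over all 12 libraries also called Crabp1 in overexpression (-0.89), and Rara in 2i was called without 2i Foxd3fl/fl replicate 1 (0.27). The block brought Rara in SL (-0.47), Crabp1 and Rara in overexpression (-0.89 and 0.80) and Rarg in the difference between media (0.38) past the threshold.

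By the authors' p-values, adjusted here, 88 genes were higher and 19 lower in SL, 392 and 517 in overexpression, and 3980 lower in 2i, with 1 other pathway gene in SL and 3 in overexpression. One fit over all 12 libraries called 169 higher and 16 lower in SL, 809 and 925 in overexpression and 1423 lower in 2i, with 2 other pathway genes in SL and 7 in overexpression. Scaling gave 3699 higher and 3804 lower in 2i, against 5573 and 2291 as deposited, and 1216 and 1466 in the difference between media, against 2294 and 693. Without a filter 0 genes were higher and 0 lower in overexpression; at 5 FPKM 71 were higher there, and other pathway genes called fell to 8 in 2i and 3 between media. Without the trend 2 other pathway genes were called in overexpression and 8 between media. Leaving out a library gave 1 to 229 higher and 0 to 84 lower in SL, 6 to 116 higher and 36 to 226 lower in overexpression, and 494 to 2773 higher and 189 to 988 lower between media. Other pathway genes called then ranged from 0 to 2 in SL, 0 to 1 in overexpression and 1 to 8 between media. Rarg in 2i lost its call after scaling (0.17), by the authors' p-values (0.12), in the fit over all 12 libraries (0.35) and without 2i labelled Foxd3-/- replicate 1 (0.34) or 2 (0.35). The cause of these changes was not tested.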
